A study of Homo sapiens with 44 samples.

Results

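The mitochondrial ribosomal protein genes were taken as every row of the deposited count table whose symbol is MRPL or MRPS followed by a number and at most 1 letter. The rule found 76 of 23367 gene rows, 47 for the large (MRPL) and 29 for the small (MRPS) subunit, and used no measured value. All 44 libraries came from IMR5/75, a human neuroblastoma line, here carrying an inducible hairpin RNA directed at MYCN. The Tet plus group (22 libraries) received tetracycline, which turns the hairpin on, and the Tet minus group (22 libraries) carried the same construct without the drug. Both groups were held for 18 h in thymidine, which stops cells at the start of DNA synthesis, and were then released and sampled 0, 3, 6, 8, 10, 12, 14, 16, 18, 20 and 22 h later, with 2 libraries per group and time that the series describes as biological replicates. No library analysed here had tetracycline without the hairpin or with a control hairpin, so effects of the drug and of lowered MYCN cannot be told apart.

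Mitochondria build their own ribosomes to translate the few membrane proteins that mitochondrial DNA encodes, all of them subunits of the respiratory chain and ATP synthase. The ribosomal RNAs come from mitochondrial DNA, whereas every mitoribosomal protein is encoded in the nucleus, made in the cytosol and imported. The small subunit holds the messenger RNA and reads its codons, and the large subunit joins the amino acids. Part of the proteins descend from the bacterial ribosome and part were added in mitochondria. MYCN, like other MYC proteins, is known to raise genes of ribosome production and of mitochondrial function. Tetracyclines bind the small subunit of bacterial ribosomes and are known to inhibit mitochondrial translation as well.

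Levels are given as CPM, read counts scaled to a common library size after TMM normalisation, and arm differences are log2 fold changes of Tet plus over Tet minus from edgeR's quasi-likelihood test, with standard errors (SE) and Benjamini-Hochberg adjusted p-values over 14534 genes (threshold 0.05). Gene counts per library ranged from 10906524 to 25313546. MYCN, the targeted gene, had 938 to 1213 CPM (median 1002) over the 14 Tet plus libraries of 0 to 14 h, against 970 to 1479 CPM (median 1228) over the 14 Tet minus libraries. Its log2 fold change was -0.27 in this window (SE 0.046, adjusted p = 2.71e-05) and -0.26 at 16 to 22 h (SE 0.0608, adjusted p = 0.000787). Up to 14 h the same-numbered libraries of both arms carry the same lane number in their titles. From 16 h on the Tet plus titles are written differently and name other lanes than the Tet minus titles, so arm and lane set cannot be told apart there, and the windows are described separately. Some of these late Tet plus titles repeat the index letters and lane number of an earlier library's title. A shared lane number therefore need not mean a shared run. These Tet plus titles do not name the arm, and those of replicate 2 begin with other numbers than the hours sampled. Their arm and time were read from the sample descriptions. At 16 to 22 h small nucleolar RNAs took 0.935% to 2.41% of gene counts in Tet plus libraries, against 0.289% to 0.713% in Tet minus libraries. At 0 to 14 h mesenchymal markers (VIM, FN1 and the like) summed to 776 to 1641 CPM in Tet plus libraries, against 782 to 1454 CPM in Tet minus libraries, with 2 of 9 tested markers higher in Tet plus cells. The 2 tested of 4 epithelial markers summed to 0.864 to 1.9 CPM in Tet plus libraries, against 0.47 to 1.49 CPM in Tet minus libraries, with 1 higher. The mesenchymal sums at 16 to 22 h were 804 to 1514 CPM in Tet plus libraries, against 931 to 1696 CPM in Tet minus libraries (3 of 9 higher), and the epithelial sums 1.06 to 1.87 CPM, against 0.45 to 1.28 CPM in Tet minus libraries (1 of 2 higher). Beside these counts, 20.1% of all tested genes passed as higher at 0 to 14 h and 26.3% at 16 to 22 h. How many of these markers passed as lower is not given here, so the counts show 1 direction only. The epithelial sums, at most 1.9 CPM, rest on few reads. None of these markers was at 0 in every library, and their part in the results was not tested. In bulk RNA, fewer cells in a given state and less RNA per cell cannot be told apart.

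Of the 76 genes, 75 had enough reads to be tested. The exception was MRPS24, with 83 reads in total over 37 libraries and at most 7 in a library. In the GENCODE annotation MRPS24 shares exons with the read-through gene URGCP-MRPS24, which has its own row. Per kilobase of the median coding transcript in GENCODE, levels at 0 to 14 h spanned a wide range. MRPL51, a mitochondria-specific large subunit protein, was highest, with 290.2 ± 37.9 CPM per kilobase in Tet plus and 315.9 ± 35.9 CPM per kilobase in Tet minus libraries (SD, n = 14 each). MRPS23 of the small subunit followed, with 242.4 ± 20.5 CPM per kilobase in Tet plus libraries and 309.1 ± 32.5 CPM per kilobase in Tet minus libraries. The lowest were MRPS31, at 8.58 ± 0.85 and 8.88 ± 1.43 CPM per kilobase in Tet plus and Tet minus libraries, and MRPL22, at 8.42 ± 0.69 and 9.09 ± 1.05 CPM per kilobase. In either arm MRPS31 and MRPL22 lie within 1 SD of each other, and MRPL51 and MRPS23 do so in Tet minus libraries.

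Promoters were compared for letters that known factors bind, since MYC proteins bind DNA at E-boxes and YY1, ETS family factors, NRF1 and NFY are known to bind near the starts of many nuclear genes for mitochondrial proteins. RefSeq promoters (GRCh38.p14, from 250 bases before to 50 after the first listed start site) were at hand for 68 of the 76 genes, and both strands were searched. The E-box CACGTG stood in 7 of the 68 (10.3%), beside 7.43% of all promoters and 10.2% of the promoters of tested genes. Of these 7 genes 4 were lower in Tet plus cells at 0 to 14 h, against 48 of the 60 tested members without it. Over all tested genes with a promoter the median log2 fold change was -0.069 with the E-box and 0.009 without. The YY1 letters AAGATGGCG stood in 13 members (19.1%), 8 of the large and 5 of the small subunit, beside 1.85% of all promoters and 3.81% of the promoters of tested genes. In 9 of them the letters began within the first 25 bases after the start site. The ETS letters CCGGAAGT stood in 16.2% of members, 4.44% of all promoters and 8.33% of those of tested genes. A palindromic NRF1 motif stood in 1.47% of members, 1.36% of all promoters and 2.3% of those of tested genes, and the NFY letters CCAAT in 29.4%, 35.7% and 36.4%. A match describes the window and is not a binding site.

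The stretches below are those of members on which later results turn, written 5′ to 3′ on the strand of the gene with the searched letters in capitals. MRPL38, MRPL42 and MRPS10 hold the YY1 letters at the start site and were higher in Tet plus cells late in the course, whereas MRPS30, MRPL46 and MRPL50 hold them and were not. MRPL36 holds the E-box and, in reverse, the YY1 letters, and was lower at each of the 7 times to 14 h, which held for 51 of the 75 tested members. The 7 members with the E-box had a median log2 fold change of -0.23 at 0 to 14 h, against -0.26 for the 60 tested members without. MRPL3 and MRPS34, among the lowest members of their subunits, hold the ETS letters, MRPS34 in reverse. They were picked for their low values: the 11 members with the ETS letters had a median log2 fold change of -0.20 at 0 to 14 h, against -0.25 for the 56 tested members without. Over all tested genes with a promoter the order was reversed, -0.051 with the ETS letters and 0.009 without.
MRPL38, chr17:75904859-75904888, minus strand: ggccggagggAAGATGGCGgcgccctggtg
MRPL42, chr12:93467512-93467541, plus strand: ggattgaaacAAGATGGCGggttcgtggtg
MRPS10, chr6:42217833-42217862, minus strand: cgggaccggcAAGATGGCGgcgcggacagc
MRPS30, chr5:44808950-44808979, plus strand: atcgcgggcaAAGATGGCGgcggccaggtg
MRPL46, chr15:88467361-88467390, minus strand: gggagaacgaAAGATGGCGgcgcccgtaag
MRPL50, chr9:101398576-101398605, minus strand: gatctcatcgAAGATGGCGgcgcgatctgt
MRPL36, chr5:1799838-1799907, minus strand: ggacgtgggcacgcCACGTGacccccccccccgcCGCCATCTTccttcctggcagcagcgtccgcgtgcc
MRPL3, chr3:131502985-131503014, minus strand: tgtaaaacgcaCCGGAAGTgggtccggcgg
MRPS34, chr16:1773136-1773165, minus strand: ctcttccggtgACTTCCGGccggaccgctg

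Summed over the genes, mitoribosomal protein transcripts were lower in Tet plus cells through most of the course. At 0 to 14 h the 47 large subunit genes together had 2772 ± 218 CPM in Tet plus libraries and 3379 ± 217 CPM in Tet minus libraries (n = 14 each, SD). The 28 tested small subunit genes had 2011 ± 144 CPM in Tet plus libraries and 2385 ± 152 CPM in Tet minus libraries. For either subunit the arms were fully separate at 10 of 11 times, Tet plus being lower, and they overlapped at 16 h. The gap was widest at 6 h and 22 h, and at 22 h arm and lane set cannot be told apart. At 6 h the large subunit sum was 25% and the small subunit sum 21.3% lower in Tet plus cells, and at 22 h the sums were 27.2% and 21.7% lower. Members took 0.488% of gene counts in replicate 1 and 0.431% in replicate 2 of Tet plus at 6 h. The latter was the lowest share of the 44 libraries. Replicates 1 and 2 of Tet minus at 6 h had 0.553% and 0.566%.

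**Figure D1:**
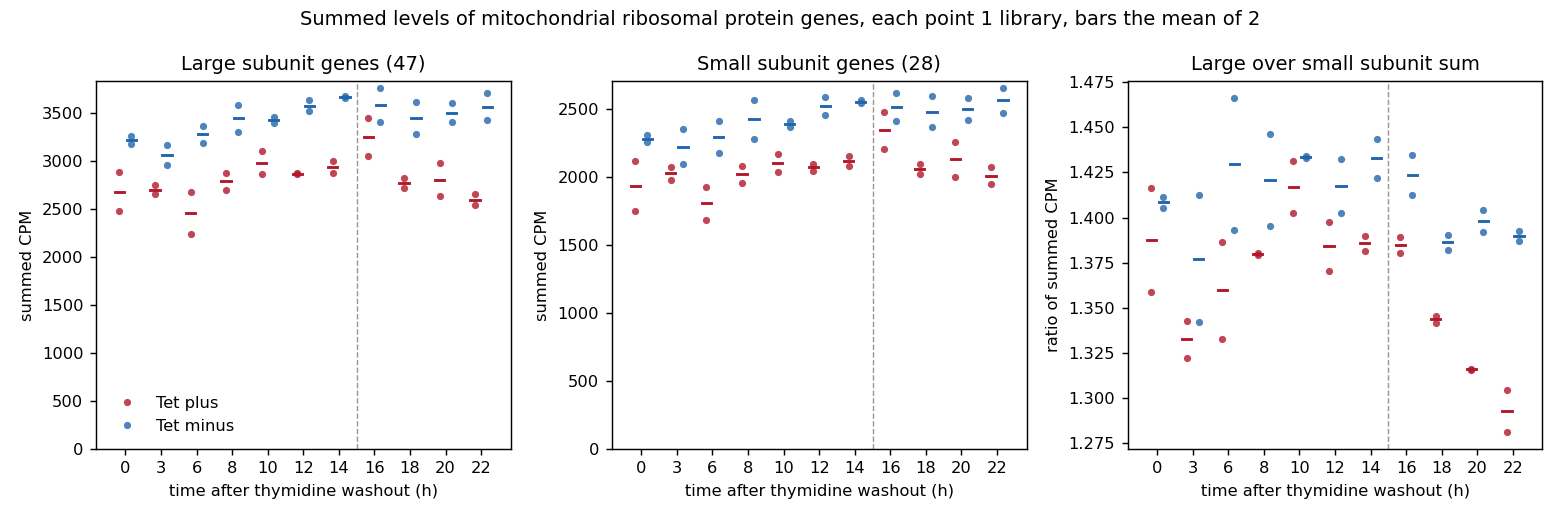
Summed CPM of large subunit genes (left) and small subunit genes (middle), and the ratio of the sums (right, axis not from 0), by hours after thymidine washout, with Tet plus in red left of Tet minus in blue. Each point is 1 library and bars are means of 2; the dashed line separates 0 to 14 h from 16 to 22 h, where arm and lane set are confounded, and the arms overlap in both sums at 16 h.

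The large subunit sum was lower by slightly more than the small subunit sum. The ratio of the large to the small subunit sum averaged 1.38 ± 0.0308 in Tet plus and 1.42 ± 0.0303 in Tet minus libraries at 0 to 14 h (SD, n = 14 each), and 1.33 ± 0.0373 and 1.4 ± 0.0172 at 16 to 22 h (n = 8 each). Both Tet plus libraries had a lower ratio than both Tet minus libraries at 9 of 11 times, and the arms overlapped at 0 and 3 h. The count was also 9 of 11 without MRPL12, which by itself made up 1.24% to 6.37% of the large subunit sum, but it was 4 of 11 without MRPL12 and MRPL3. Symbols and structure differ for some genes: MRPS30 and MRPS18A are placed in the large subunit in structures of the mammalian mitoribosome, and MRPS36 has been reassigned to the 2-oxoglutarate dehydrogenase complex. With those genes moved, the ratio was lower at 8 of 11 times.

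Gene by gene, 60 of the 75 tested members were lower in Tet plus cells at 0 to 14 h and none was higher, where 41.4% of all tested genes passed the threshold, 21.3% as lower and 20.1% as higher. The lower members were 39 of 47 large subunit genes (median log2 fold change over all 47, -0.26) and 21 of 28 small subunit genes (median over all 28, -0.24), beside a median of 0.01 over all tested genes. By structural assignment the counts were 41 of 49 and 19 of 25. The sign was negative in 73 of 75 members, and the range was -0.76 to 0.12. In 51 members the Tet plus mean was lower at each of the 7 times, and in 16 members neither Tet plus library reached the lower Tet minus library at any of the 7 times. Those 16 were MRPL2, MRPL3, MRPL9, MRPL11, MRPL17, MRPL20, MRPL21, MRPL24, MRPL36, MRPL37, MRPL52, MRPS7, MRPS12, MRPS15, MRPS23 and MRPS30. The same counts over all tested genes are not given here, so the 51 and the 16 describe the members alone. Scaled to the ERCC spike-in transcripts, none of the 75 passed and the all-gene median moved up by 0.12, while 73 of 75 members were below that median, as under TMM. The share of all tested genes passing under this spike-in scaling is not given here, so that count does not single out the members. MRPL43, MRPS31 and MRPS10 turned positive under spike-in scaling.

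**Figure D2:**
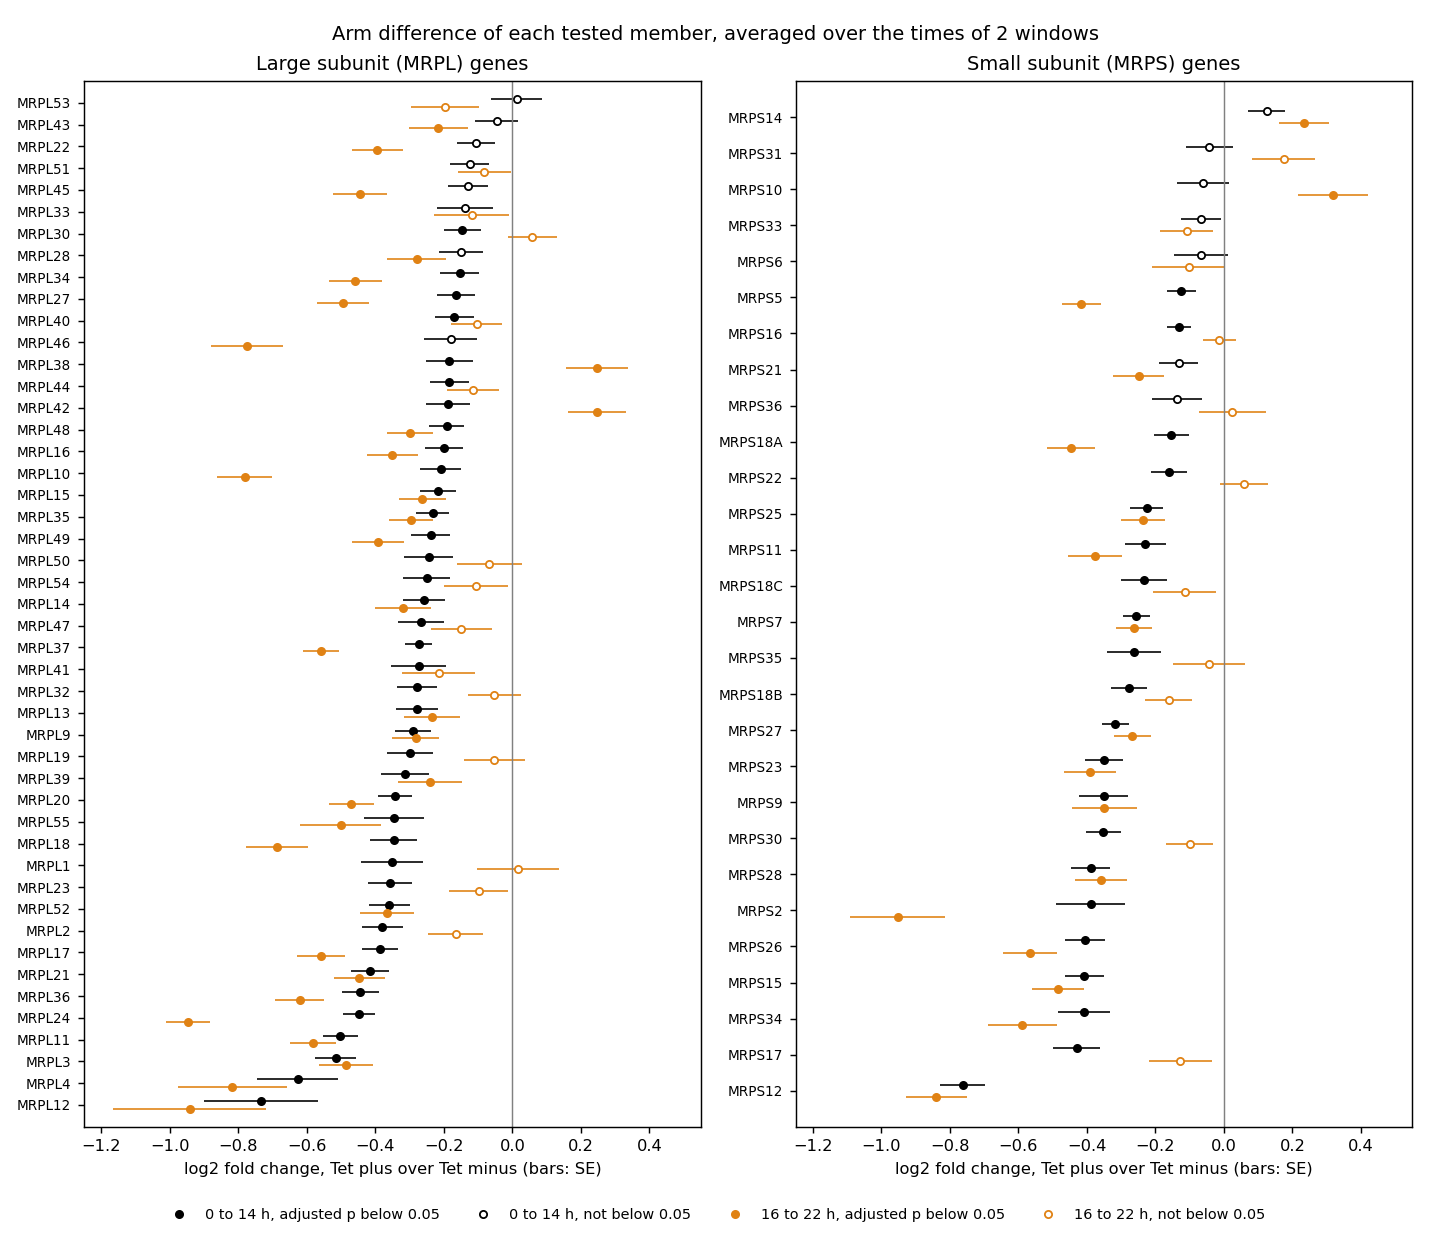
log2 fold change of Tet plus over Tet minus with its SE for the 47 large subunit genes (left) and 28 small subunit genes (right), at 0 to 14 h (black) and 16 to 22 h (orange); filled points passed the adjusted threshold under TMM scaling (under spike-in scaling every member is positive at 16 to 22 h). At 0 to 14 h the values lie between -0.76 and 0.12, and at 16 to 22 h they are more widely spread.

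Genes with a bacterial counterpart and genes specific to mitochondria were both lower. In the large subunit 25 of 28 genes with a bacterial counterpart (median -0.29) and 14 of 19 mitochondria-specific genes (median -0.19) passed as lower. In the small subunit the counts were 13 of 17 (median -0.23) and 8 of 10 (median -0.29). The order of the medians was therefore not the same in both subunits, and the difference between these classes was not tested.

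MRPS12, the counterpart of bacterial S12 at the decoding centre, had the lowest log2 fold change, -0.76 (SE 0.066, adjusted p = 7.82e-10). It had 19.5 to 32 CPM (median 25.7) in Tet plus libraries, against 33.7 to 53.5 CPM (median 43.7) in Tet minus libraries, with no overlap over the 28 libraries of 0 to 14 h. It was also the member called most often at single times, at 6 of the 7. The exons of MRPS12 overlap those of SARS2 on the other strand, and the strand setting of the counting is not given, so part of its reads could belong to SARS2. Of all members, 24 have such an overlap on the opposite strand and 13 on the same strand in GENCODE.

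Among large subunit genes the lowest was MRPL12, the counterpart of the stalk protein that recruits translation factors, at -0.73 (SE 0.166, adjusted p = 0.000823). It varied widely between replicates, with 46.1 to 127 CPM (median 63.5) in Tet plus libraries and 64.3 to 188 CPM (median 108) in Tet minus libraries. At 0 h, for instance, the Tet plus libraries had 57.9 and 127 CPM and the Tet minus libraries 109.7 and 135 CPM. The arms overlapped at 3 of 7 times, and the Tet plus library was the lower of each of the 14 same-numbered pairs.

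MRPL11, part of the site that stimulates the GTPase factors, was far steadier. It had 57.1 to 88 CPM (median 78) in Tet plus libraries and 98.5 to 119 CPM (median 108) in Tet minus libraries, and its log2 fold change was -0.50 (SE 0.0505, adjusted p = 1.09e-08). MRPL24, whose bacterial counterpart starts assembly of the large subunit, had 66.2 to 96.7 CPM in Tet plus libraries and 102 to 139.9 CPM in Tet minus libraries (log2 fold change -0.45, SE 0.048, adjusted p = 3.11e-08). Neither gene overlapped between the arms at any of the 7 times. MRPL3, which reaches towards the peptidyl transferase centre, was at 82.5 to 156 CPM (median 111) in Tet plus libraries and 113 to 241 CPM (median 160) in Tet minus libraries (log2 fold change -0.52, SE 0.0595, adjusted p = 1.09e-07). MRPL4, which lines the exit tunnel, was at 17.9 to 32.6 CPM (median 24.5) in Tet plus libraries and 25.4 to 62.7 CPM (median 39.7) in Tet minus libraries (log2 fold change -0.63, SE 0.117, adjusted p = 0.000103). The ranges of MRPL3 and MRPL4 overlap across times, though at each single time both Tet plus libraries of MRPL3 were below both Tet minus libraries.

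Of the small subunit genes after MRPS12, MRPS17 had a log2 fold change of -0.43 (SE 0.0695), MRPS34 of -0.41 (SE 0.0754), MRPS15 of -0.41 (SE 0.0574) and MRPS26 of -0.40 (SE 0.0587). MRPS17 and MRPS15 have bacterial counterparts that bind the small ribosomal RNA early in assembly, whereas MRPS34 and MRPS26 are specific to mitochondria. MRPS15 had 57.8 to 102 CPM in Tet plus libraries and 90.8 to 128 CPM in Tet minus libraries. MRPS34 had 62.2 to 121 CPM in Tet plus libraries, against 95.1 to 144 CPM in Tet minus libraries. For MRPS15, both Tet plus libraries were below both Tet minus libraries at 7 of 7 times, and for MRPS17, MRPS34 and MRPS26 at 6 of 7.

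The 15 members that did not pass at 0 to 14 h were MRPL22, MRPL28, MRPL33, MRPL43, MRPL45, MRPL46, MRPL51, MRPL53, MRPS6, MRPS10, MRPS14, MRPS21, MRPS31, MRPS33 and MRPS36. MRPS14, whose bacterial counterpart sits in the head of the small subunit, had the highest value, 0.12 (SE 0.0543, adjusted p = 0.0682). It had 47.7 to 76.6 CPM (median 55.8) in Tet plus libraries and 37.3 to 74.5 CPM (median 52.7) in Tet minus libraries. With replicate number as a block it passed as higher (adjusted p = 0.0199). MRPL53, specific to mitochondria, stood at 0.01 (SE 0.0743, adjusted p = 0.908), with 24.5 to 40.6 CPM in Tet plus libraries and 27.5 to 42.5 CPM in Tet minus libraries. MRPL43 stood at -0.05 (SE 0.0636), MRPS31 at -0.04 (SE 0.0693), MRPS10 at -0.06 (SE 0.0764) and MRPL22 at -0.11 (SE 0.0552). An adjusted p above the threshold does not show that these genes were equal in both arms.

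At single times, with 2 libraries per arm and no block for replicate number, few members passed. At 0, 3, 6, 8, 10, 12 and 14 h the counts were 2, 1, 20, 4, 2, 6 and 6, all lower, where 1%, 1.7%, 4.44%, 2.06%, 2.04%, 2.57% and 3.34% of all tested genes passed as lower. With replicate number as a block they were 7, 3, 35, 18, 6, 19 and 19. The shares of all tested genes passing with the block are not given here, so these larger counts do not single out the members. The 6 h count rested on single libraries: it was 0 without replicate 2 of Tet plus, 1 without replicate 2 of Tet minus, 13 without replicate 1 of Tet minus and 26 without replicate 1 of Tet plus. Median log2 fold changes of the large subunit genes at these times were -0.24, -0.13, -0.38, -0.31, -0.19, -0.29 and -0.30, and of the small subunit genes -0.27, -0.14, -0.30, -0.28, -0.13, -0.30 and -0.26. After MRPS12, the members called most often were MRPL3 at 5 times, MRPL11 at 4, and MRPL17 and MRPL36 at 3. No member passed edgeR's test of whether the arm difference depends on time within 0 to 14 h (0 of 75 at adjusted or unadjusted p below 0.05, background 0.0138%). The smallest p in this test was that of MRPL38, 0.092, followed by MRPL35, MRPL54, MRPS25 and MRPL50. Only 2 of 14534 genes passed it, so the result does not show that the differences were constant over time.

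**Figure D3:**
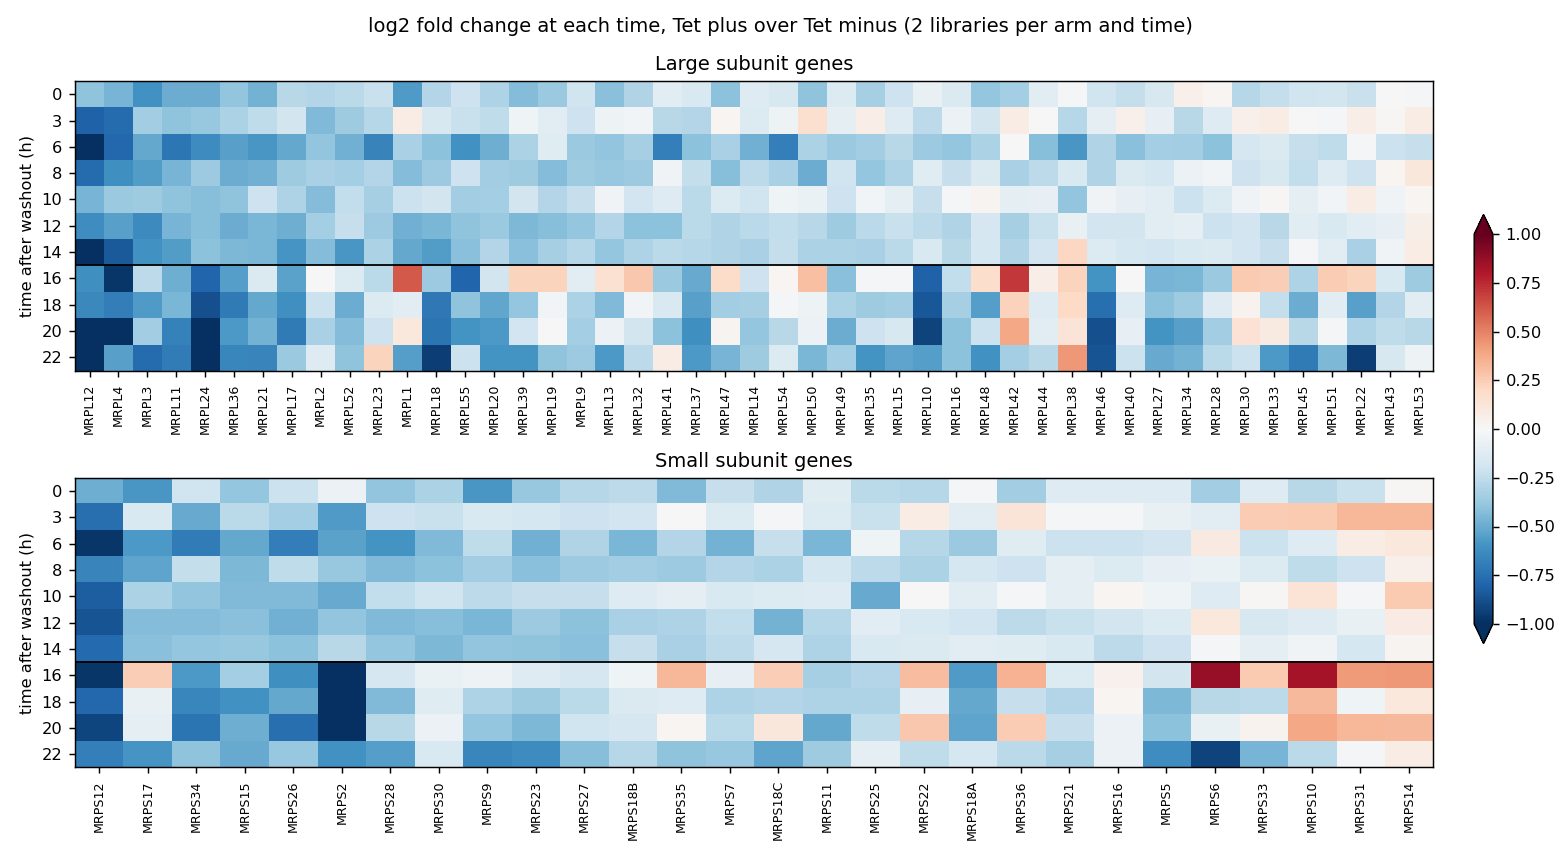
log2 fold change of Tet plus over Tet minus for each member (columns, ordered by the 0 to 14 h value) at each time (rows), blue where lower and red where higher in Tet plus cells; colours saturate at -1 and 1. Above the black line, up to 14 h, most cells are blue, and below it red cells are most frequent at 16 h.

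At 16 to 22 h, where lane set and arm are confounded, 49 members passed, 45 of them lower and 4 higher, beside 53.1% of all tested genes passing (26.8% lower, 26.3% higher). The lower ones were 30 large subunit genes (median over all 47, -0.30) and 15 small subunit genes (median over all 28, -0.24), and 2 genes of each subunit were higher. MRPS2 (-0.95, SE 0.138, adjusted p = 1.95e-06), MRPL24 (-0.95, SE 0.0643, adjusted p = 2.78e-12) and MRPL12 (-0.94, SE 0.223, adjusted p = 0.000851) were lowest. MRPS2, the counterpart of bacterial S2, had 14.8 to 21.5 CPM (median 17.2) in Tet plus libraries and 25.3 to 43.2 CPM (median 32.6) in Tet minus libraries. MRPL24 had 56.5 to 84.5 CPM (median 64.7) in Tet plus libraries and 108.8 to 140.3 CPM (median 129.8) in Tet minus libraries. Neither overlapped between arms. The spike-ins took 0.0543% to 0.376% of counts in Tet plus libraries, against 1.13% to 3.43% in Tet minus libraries of these times. Scaled to them, the all-gene median moved up by 4.39 and 75 of 75 members passed as higher, while 66 lay below that median, against 67 under TMM. The share of all tested genes passing as higher under this scaling is not given here. Of all members, 39 were lower in both windows, 19 were lower at 0 to 14 h alone, 6 at 16 to 22 h alone, 4 were higher at 16 to 22 h, and 7 passed in neither. The same counts over all tested genes are not given here, so these describe the members alone. The difference between windows was not tested. In the large subunit 21 of 28 genes with a bacterial counterpart were lower (median -0.37), against 9 of 19 mitochondria-specific genes with 2 higher (median -0.22).

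Most members with the lowest values at 0 to 14 h were lower here as well. MRPS12 had 18.4 to 27.8 CPM in Tet plus libraries, against 30.7 to 53.2 CPM in Tet minus libraries (-0.84, SE 0.0889, adjusted p = 1.11e-08), again with no overlap. MRPL11 (-0.58, SE 0.0672), MRPL4 (-0.82, SE 0.159), MRPL3 (-0.49, SE 0.0789), MRPS34 (-0.59, SE 0.1), MRPS26 (-0.57, SE 0.0785) and MRPS15 (-0.48, SE 0.0764) were lower too. MRPL22, the counterpart of an exit tunnel protein, passed as lower here (-0.39, SE 0.0741, adjusted p = 6.86e-05) after missing the threshold at 0 to 14 h. The reverse held for MRPS17 (-0.13, SE 0.0922, adjusted p = 0.253) and for MRPL32, which is matured by a protease of the inner membrane and stood at -0.28 (SE 0.0588) at 0 to 14 h and -0.05 (SE 0.0781, adjusted p = 0.595) here. MRPL50 (-0.24, SE 0.0721, then -0.07, SE 0.0958) and MRPL54 (-0.25, SE 0.0695, then -0.11, SE 0.0926) likewise passed at 0 to 14 h alone, whereas MRPS25 (-0.22, SE 0.0482, then -0.24, SE 0.064) and MRPS27, a protein with RNA-binding repeats (-0.32, SE 0.0402, then -0.27, SE 0.0532), passed in both.

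The 4 higher members at 16 to 22 h were MRPS10 (0.32, SE 0.101, adjusted p = 0.00987), MRPL42 (0.25, SE 0.0854, adjusted p = 0.0169), MRPL38 (0.25, SE 0.0905, adjusted p = 0.0238) and MRPS14 (0.23, SE 0.0719, adjusted p = 0.00782). MRPL42 and MRPL38, both specific to mitochondria, had been lower at 0 to 14 h (-0.19, SE 0.0645 and -0.18, SE 0.0682), and both of those calls were lost when certain single libraries were left out, MRPL38 with 9 of 28 and MRPL42 with 3 of 28. For MRPS10 and MRPL42 the gap was widest at 16 h and was not seen at 22 h. MRPS10, the counterpart of bacterial S10, had 74.1 and 93.7 CPM in Tet plus libraries at 16 h, against 42.3 and 52.1 CPM in Tet minus libraries, and 57.4 and 48.6 CPM in Tet plus libraries at 22 h, against 55.2 and 72.5 CPM in Tet minus libraries. MRPL42 had 137 and 144 CPM in Tet plus libraries at 16 h, against 79.5 and 91.9 CPM in Tet minus libraries, and 89.3 and 81.8 CPM in Tet plus libraries at 22 h, against 93.5 and 123 CPM in Tet minus libraries. MRPL38 was above at 22 h as well, with 139.8 and 142 CPM in Tet plus libraries and 94.5 and 114 CPM in Tet minus libraries. Of these 4, MRPL38, MRPL42 and MRPS10 hold the YY1 letters shown above and MRPS14 does not, a grouping made after the values were seen and not tested. The 12 tested members with the letters had a median log2 fold change of -0.13 at 16 to 22 h, against -0.28 for the 55 without, and -0.22 against -0.26 at 0 to 14 h. Over all tested genes with a promoter the order was reversed at 16 to 22 h, -0.088 with the letters and -0.005 without. At 0 to 14 h these all-gene medians were -0.059 and 0.005.

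**Figure D4:**
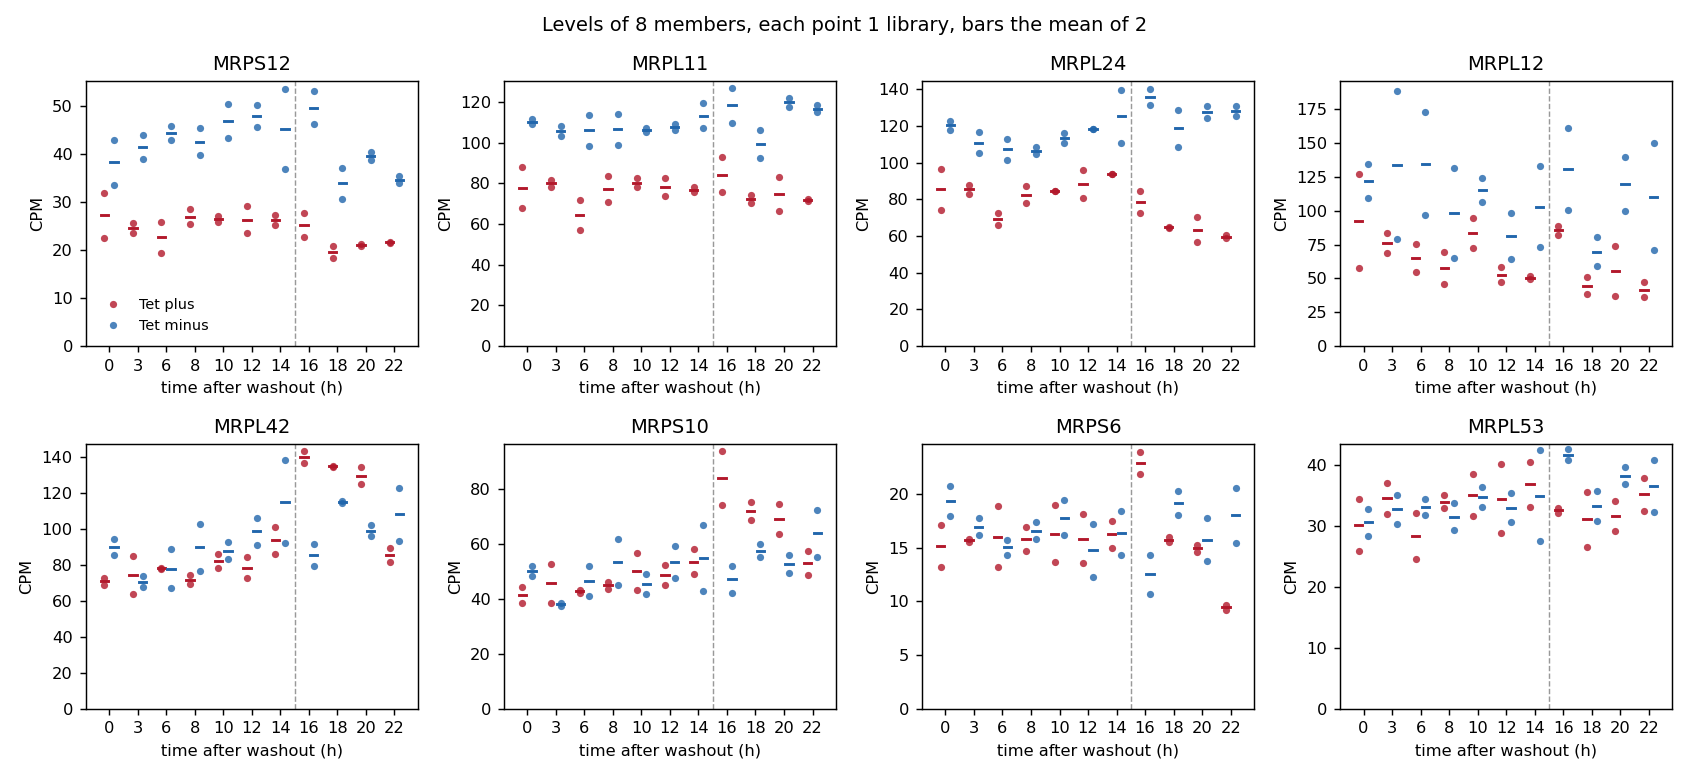
CPM of 8 members in every library by hours after washout, Tet plus in red left of Tet minus in blue, with bars at the mean of 2 libraries. MRPS12, MRPL11 and MRPL24 are apart between the arms at each time, MRPL12 is scattered, MRPL42, MRPS10 and MRPS6 are higher in Tet plus cells at 16 h, and MRPL53 overlaps at most times.

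MRPS6, the counterpart of bacterial S6, crossed between arms within this window. It had 21.8 and 23.9 CPM in Tet plus libraries at 16 h, against 10.7 and 14.3 CPM in Tet minus libraries (log2 fold change 0.87, SE 0.212, adjusted p = 0.00326). At 22 h it had 9.2 and 9.69 CPM in Tet plus libraries, against 15.5 and 20.5 CPM in Tet minus libraries (-0.93, SE 0.217, adjusted p = 0.00212). MRPS6 shares exons with SLC5A3 on the same strand, and their reads cannot be told apart where they overlap. It was singled out after its values were seen. At 16, 18, 20 and 22 h, 21, 24, 25 and 37 members passed, beside 27%, 18.7%, 23.9% and 28.4% of all tested genes, and of these MRPL42, MRPS6, MRPS10 and MRPS14 were higher at 16 h, where 12.9% of all tested genes passed as higher. These counts rested on single libraries. The 16 h count was 11 without replicate 2 and 12 without replicate 1 of Tet plus, and 13 and 14 without replicates 1 and 2 of Tet minus. The 18 h count was 10 without either Tet plus library and 5 without replicate 2 of Tet minus. At 20 h it was 8 without replicate 1 of Tet plus and 15 without replicate 2 of Tet minus. At 22 h it was 22 without replicate 2 of Tet plus and 17 without replicate 2 of Tet minus.

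Within an arm the mitoribosomal medians lay below their 0 h level at some times and above it at others. In Tet plus cells at 6 h the median log2 change from 0 h was -0.09 for large and -0.07 for small subunit genes, and in Tet minus cells at 3 h it was -0.06 and -0.07. At 14 h the median log2 change from 0 h was 0.17 for large and 0.19 for small subunit genes in Tet plus cells, and 0.20 for both in Tet minus cells, beside 0.01 and -0.01 over all genes. From 0 to 14 h, 4 members changed in Tet plus cells (MRPL3, MRPL35, MRPL48 and MRPL54, background 10.4%) and 10 in Tet minus cells (MRPL3, MRPL9, MRPL13, MRPL32, MRPL35, MRPL36, MRPL47, MRPS14, MRPS18C and MRPS27, background 14.5%), with 16 and 29 under the replicate block. Those backgrounds are for the fit without the block, and the shares under the block are not given here. MRPL3 averaged 140.5 CPM at 14 h and 90.4 CPM at 0 h in Tet plus cells, and 213.5 CPM at 14 h and 137.5 CPM at 0 h in Tet minus cells. MRPL35, the counterpart of a small bacterial large subunit protein, was highest at 10 h in Tet plus cells (112.9 CPM, against 77.8 CPM at 0 h) and at 8 h in Tet minus cells (130.2 CPM, against 77.3 CPM at 3 h). Lanes change along the course. Within 1 set of lanes, no member differed between 6 and 0 h (12 members in Tet plus and 1 in Tet minus cells at unadjusted p below 0.05, backgrounds 2.5% and 2.35%) or between 12 and 8 h (0 and 0 at unadjusted p below 0.05, backgrounds 0.22% and 0.833%) by edgeR.

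At 22 h compared with 16 h, also within 1 set of lanes per arm, 9 members were lower in Tet plus cells, beside 4.65% of all tested genes passing as lower. They were MRPS6 (-1.28, SE 0.219, adjusted p = 0.000838), MRPL22 (-0.79, SE 0.151), MRPL51 (-0.71, SE 0.153), MRPL42 (-0.71, SE 0.172), MRPL21, MRPL48, MRPL3, MRPS18C and MRPS10. In Tet minus cells no member passed by edgeR (10 at unadjusted p below 0.05, background 1.64%). The count in Tet plus cells was 1 without replicate 2 at 16 h, 1 without replicate 2 at 22 h, 4 without replicate 1 at 22 h and 10 without replicate 1 at 16 h. With a block for replicate number it was 22 in Tet plus and 2 in Tet minus cells, and the shares of all tested genes passing with that block are not given here.

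Among genes that work with the mitoribosome, part were lower at 0 to 14 h and none was higher, where 21.3% of all tested genes passed as lower. Of 7 mitoribosomal proteins under other symbols 5 passed as lower, among them DAP3, a GTP-binding small subunit protein (-0.26, SE 0.037), ICT1, a peptidyl-tRNA hydrolase built into the large subunit (-0.28, SE 0.0542), AURKAIP1 (-0.25, SE 0.0597) and GADD45GIP1 (-0.21, SE 0.0757). The GADD45GIP1 call was lost without certain single libraries and in a fit of the 0 to 14 h libraries alone (adjusted p = 0.0515). Of 25 assembly and ribosomal RNA factors 18 were lower and 7 did not pass. MRM1, a methyltransferase of the large ribosomal RNA, had 3.74 to 8.18 CPM (median 5.34) in Tet plus libraries and 6.89 to 13.2 CPM (median 11) in Tet minus libraries (-0.94, SE 0.0727, adjusted p = 8.92e-11). MPV17L2, an inner membrane protein needed for ribosome assembly, had 6.87 to 13.4 CPM in Tet plus libraries and 10.5 to 21.4 CPM in Tet minus libraries (-0.67, SE 0.0756, adjusted p = 6.78e-08). RNMTL1, another methyltransferase of that RNA (-0.44, SE 0.0523), and RPUSD4, a pseudouridine synthase (-0.35, SE 0.0538), were also lower.

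Of 15 mitochondrial translation factors 9 were lower, with the elongation factor TUFM at -0.34 (SE 0.0553), its exchange factor TSFM at -0.26 (SE 0.049), the recycling factor MRRF at -0.27 (SE 0.0414) and the messenger RNA stabiliser SLIRP at -0.43 (SE 0.0651). Of 5 genes of mitochondrial transcription 3 were lower: TFB2M (-0.56, SE 0.0712), POLRMT (-0.38, SE 0.0632) and TFAM (-0.42, SE 0.0854). TEFM, the elongation factor, stood at -0.13 (SE 0.0738, adjusted p = 0.164). At 16 to 22 h, 6 of the 7 other mitoribosomal proteins, 17 of the 25 assembly factors, 9 of the 15 translation factors and 3 of the 5 transcription genes were lower and none was higher, where 26.8% of all tested genes passed as lower. At 0 to 14 h cytosolic ribosomal protein genes were lower in 22 of 78 (28.2%, median -0.12) and nuclear genes of the respiratory chain in 24 of 78 (30.8%, median -0.11), beside 21.3% of all tested genes and 60 of 75 (median -0.26) for the mitoribosomal members. At 16 to 22 h the lower counts were 16 of 78 (20.5%) with 4 higher (median -0.01) for cytosolic ribosomal proteins and 26 of 78 (33.3%) with 7 higher (median -0.13) for the respiratory chain, beside 26.8% of all tested genes. The differences between these lists were not tested. Markers of entry into DNA synthesis (MCM2 to MCM7, cyclins E, PCNA and others) moved with the arms too: 11 of 12 were lower at 0 to 14 h (median -0.48), and together they had 1959 to 3647 CPM in Tet plus libraries and 2761 to 4323 CPM in Tet minus libraries. At 16 to 22 h 12 of 12 were lower (median -1.28), with 1548 to 2099 CPM in Tet plus libraries, against 4086 to 5205 CPM in Tet minus libraries. Of 12 markers of G2 and mitosis 2 were higher and 2 lower at 0 to 14 h (median -0.01), and 11 were lower at 16 to 22 h. The part of cell cycle state in the mitoribosomal values was not tested.

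**Figure D5:**
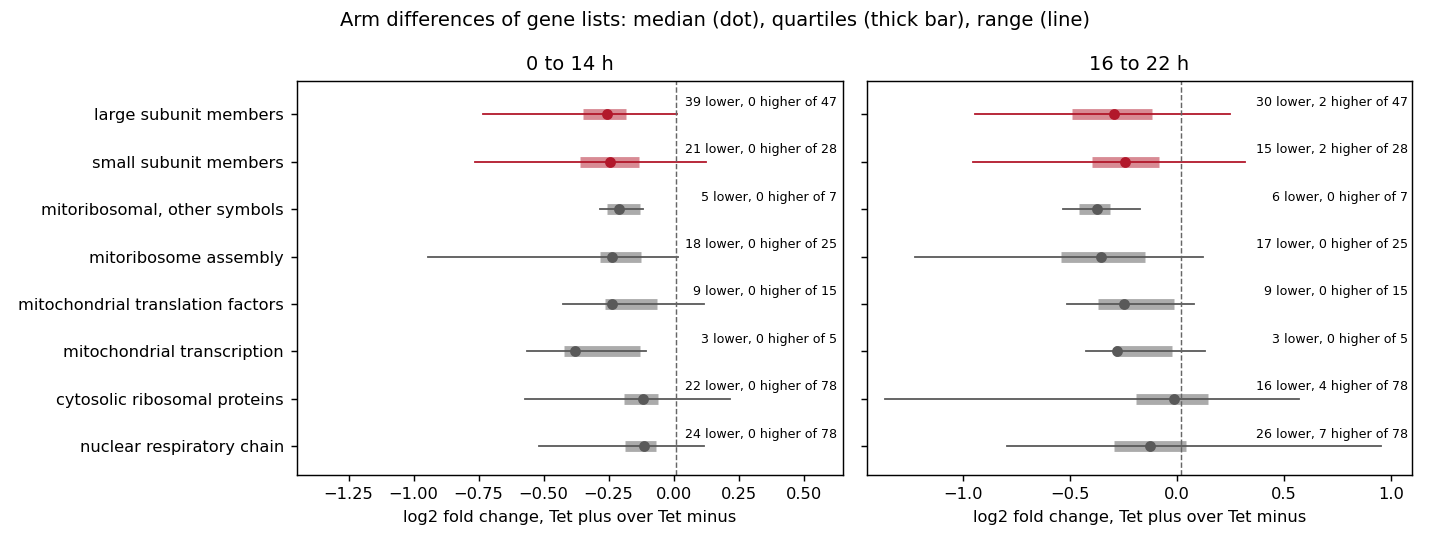
Median (dot), quartiles (thick bar) and range (line) of the log2 fold changes of Tet plus over Tet minus for the mitoribosomal members (red) and other gene lists (grey), with the number of genes that passed in each direction, at 0 to 14 h (left) and 16 to 22 h (right). The dashed line is the median of all tested genes; at 0 to 14 h the medians of both mitoribosomal subunits are -0.26 and -0.24 and those of cytosolic ribosomal proteins and the respiratory chain are -0.12 and -0.11.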

How the data were processed

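Directional libraries were made from total RNA after removal of ribosomal RNA, with ERCC spike-ins added, per the labels' protocols. The deposited values are whole-number read counts per gene. TopHat2 (2.0.5), HTSeq and the build hg19 are named by the submitters' processing notes. Annotation and strand setting: not given in the sources used here. ERCC rows (92) were kept out of gene tests. Counts were tested with edgeR 4.0.16 (R 4.3.3; TMM, filterByExpr by group, glmQLFit, glmQLFTest), with a mean for each of 22 groups and 22 residual degrees of freedom. Standard errors were taken from the log2 fold change and the F statistic. The steps were tested on simulated counts. Members and lists were chosen with earlier results of these data known. Named members were the 5 lowest and 3 highest per subunit at 0 to 14 h, the 5 smallest p for dependence on time and for the Tet minus course, and the 3 lowest and 3 highest at 16 to 22 h; of other lists, up to 4 genes by adjusted p. Deviations of same-numbered libraries correlated between arms at each time (lowest r 0.373 at 0 to 14 h and 0.263 at 16 to 22 h across genes), so the numbers were taken to pair the arms. The main tests had no term for replicate number and so left this pairing out. Fits with that term are the ones called the replicate block. Counts of replicates differed beyond sampling noise (8.9 to 51.3 chi-square units per gene). Gene lengths and exon overlaps came from GENCODE and promoters from RefSeq, both of another build than the counts. No p-value takes account of shared deviations between times, and where replicates are not separate cultures p-values measure only the spread between libraries. A further marker list is not reported here.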

Additional observations from a re-analysis of the deposited data

Results flagged for a closer look

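MRPS6 passed the threshold in opposite directions at 2 times, with both Tet plus libraries above both Tet minus libraries at 16 h (log2 fold change 0.87) and below them at 22 h (-0.93). The difference between these times was not tested, arm and lane set cannot be told apart at either time, and MRPS6 shares exons with SLC5A3.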

How the results depend on the processing

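The number of members that passed at 0 to 14 h was 57 to 66 under DESeq2, RLE size factors, no filter on low counts, the libraries of these times alone and the replicate block (66), and 54 to 65 when single libraries were left out. At 16 to 22 h it was 48 to 53 and 46 to 49. With ERCC size factors it was 0 at 0 to 14 h and 75 at 16 to 22 h: the all-gene median moved by 0.12 and 4.39, large and small subunit medians were -0.12 and -0.12 at 0 to 14 h and 4.11 and 4.17 at 16 to 22 h, and MRPL43 (0.11), MRPS31 (0.048) and MRPS10 (0.020) turned positive at 0 to 14 h. Relative to the all-gene median 73 and 66 of 75 members were below it under this scaling. The large subunit median at 16 to 22 h was -0.28 under DESeq2 (-0.277), RLE (-0.277) and these libraries alone (-0.283), -0.299 without a filter and -0.294 with the replicate block, and -0.31 to -0.26 with single libraries left out. The small subunit median there ran from -0.26 to -0.22, and at 0 to 14 h the medians ran from -0.28 to -0.23 (large) and -0.27 to -0.23 (small). At single times the replicate block gave 7 members at 0 h, 3 at 3 h, 35 at 6 h, 18 at 8 h, 6 at 10 h, 19 at 12 h and 19 at 14 h. Without a filter the counts were 0 at 0 h, 0 at 8 h, 1 at 10 h and 2 at 12 h, with RLE 0 at 0 h, 1 at 8 h and 3 at 12 h, and with DESeq2 11 at 14 h; the cause was not tested. Leaving out single libraries gave 0 to 1 (0 h), 0 to 1 (3 h), 0 to 26 (6 h), 0 to 1 (8 h), 0 to 1 (10 h), 1 (12 h), 0 to 6 (14 h), 11 to 14 (16 h), 5 to 21 (18 h), 8 to 23 (20 h) and 17 to 37 (22 h). The course in Tet plus gave 0 members without a filter, 16 with the block and 0 to 7 with single libraries left out, and in Tet minus 6, 29 and 2 to 11. With the block 1 member differed between 6 and 0 h in each arm (0 to 2 in Tet plus with single libraries left out), and 22 in Tet plus and 2 in Tet minus between 22 and 16 h (1 to 10 and 0). The block changed no other count by over 1.5 times, and the shares of all tested genes passing with it are not given here. The ratio of the subunit sums was lower at 4 of 11 times without MRPL12 and MRPL3, an alternative chosen after seeing the data. The sign of MRPL53, near 0, turned without 9 of 28 libraries (-0.0286 to 0.0675). MRPL38 missed the threshold with the 0 to 14 h libraries alone (adjusted p = 0.051). Depth limits MRPS24, which had too few reads to test.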
